A study of Rattus norvegicus with 10 samples.

Results

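Mitochondrial ribosomal proteins are made in the cytosol from nuclear genes and are carried into mitochondria, where they build the ribosome that translates the messages of mitochondrial DNA. The genes followed here are those whose symbol begins with Mrpl or Mrps and a number and that have a probe set paired with exactly 1 gene on the Affymetrix rat genome array. There were 73 such genes of the 14217 genes with a probe set of that kind, 46 named Mrpl and 27 named Mrps, with 97 probe sets of the 31042 tested. Each gene is represented by its probe set with the highest mean over the 10 arrays.

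The study asked how hepatic gene expression responds to a short-term iron-deficient diet. Male Sprague-Dawley rats, 5 weeks old by the labels, received for 3 days either an iron-deficient diet with about 3 ppm iron, made by leaving out the ferric citrate and eaten ad libitum, or the control diet with 48 ppm iron, given by pair feeding. Both groups carried no other treatment and shared scheduled daytime feeding, and the liver was taken on day 3. The labels place this after 1.5 h of feeding and the methods 1.5 h after feeding. Liver RNA of 5 iron-deficient and 5 pair-fed rats was hybridized to 1 array each, and all values below are log2 signals after robust multiarray averaging (RMA). The samples are pieces of whole liver, so that fewer cells of a type and less RNA per cell cannot be told apart. The hepatocyte markers were at 13.14 or above on average, and none of the 6 passed the test. The red cell markers were lower in the iron-deficient group, with 4 of 5 past the test and a median log2 difference of -0.74, with the part of blood in the results below not tested. All 5 endothelial markers and 5 of the 6 stellate cell markers were higher on average in the iron-deficient group, with median log2 differences of 0.12 and 0.18, and none passed the rank products. In the 3 other marker lists, of Kupffer cells, of T and NK cells and of neutrophils, the medians were -0.03, -0.02 and -0.19 and none passed either. The array that stood apart was that of iron-deficient rat 1, whose correlation with the other 9 averaged 0.9915, against 0.9935 to 0.9941 for the others.

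The mammalian mitochondrial ribosome has a small subunit, which holds the message, and a large subunit, which joins amino acids. Many of its proteins descend from those of the bacterial ribosome, and others have no bacterial counterpart. It makes core subunits of the respiratory chain and ATP synthase. Iron-sulfur clusters have been found in human mitochondrial ribosomes themselves.

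Mitochondrial ribosomal protein messages lay slightly lower in the iron-deficient group as a whole, and no single gene passed the test. The mean was lower in the iron-deficient group for 69 of the 73 genes and higher for 4. The share of all probe sets with a lower mean was 48.6%, and among the 9677 genes with a mean log2 level of at least 6, which all 73 genes have, it was 55.6%. The median log2 difference, iron-deficient minus pair-fed, was -0.10 (0.93-fold), with quartiles of -0.14 and -0.06, against a median of -0.01 over all genes with a probe set and -0.02 over the genes with a level of at least 6. The standard error (SE) of a single gene's difference from limma ran between 0.058 and 0.140, with a median of 0.0749. Without iron-deficient rat 1, 62 of the 73 genes were lower and the median was -0.06. The genes were not independent of each other, because 1 rat contributes a value to each of them.

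Rank products, the test that the study applied, set each iron-deficient array against each pair-fed one, 25 pairs in all, rank the differences and estimate a false discovery rate (FDR) from permutations. At an FDR under 0.05 they called 94 probe sets higher, 0.303% of all, and 178 lower, 0.573% of all. None of the 73 genes was among them, and the lowest FDR was 0.122, for Mrpl49. limma, whose moderated statistic divides a difference by its SE, gave 0 calls among all probe sets after Benjamini-Hochberg adjustment (0.0%), and the lowest adjusted p of the 73 genes was 0.494. At an unadjusted p under 0.05, limma gave 9 of the 73 genes, all lower in the iron-deficient group. The background is 3.21% of all probe sets higher and 3.77% lower, and 6.43% lower among the genes with a level of at least 6.

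**Figure D1:**
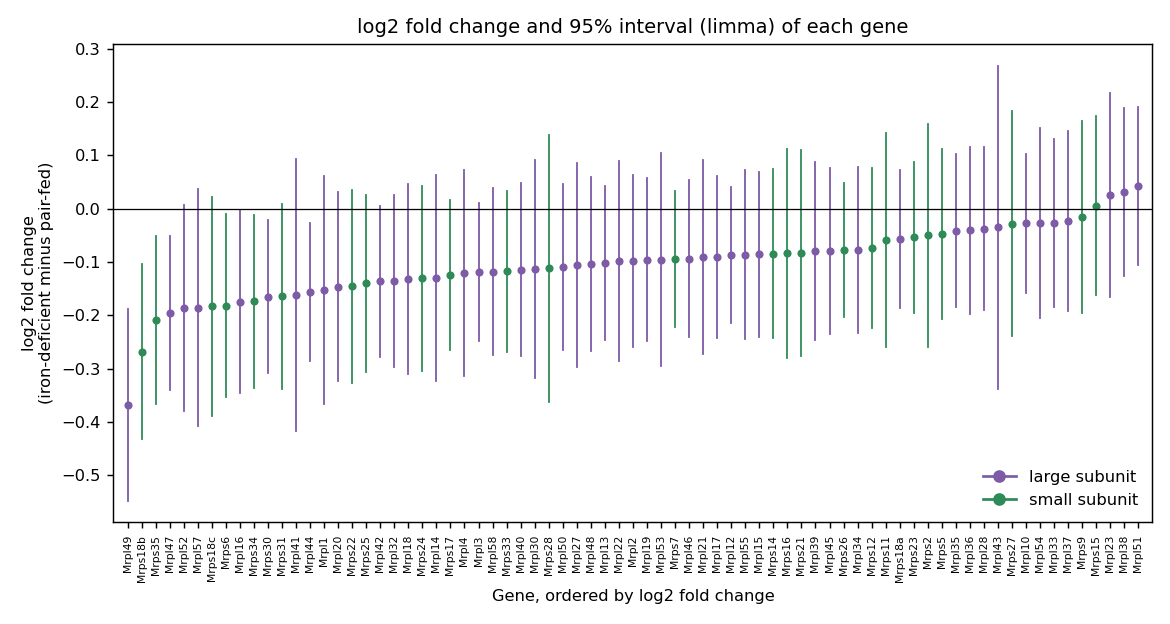
log2 fold change (iron-deficient minus pair-fed) of each of the 73 genes, with its 95% interval from limma, ordered by size and coloured by ribosomal subunit. The points run between -0.37 and 0.04, 69 of them below 0, and the intervals of 9 genes lie wholly below 0.

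The lowest value belonged to Mrpl49, a large subunit protein without a bacterial counterpart. Its log2 signal was 8.44, 8.64, 8.35, 8.42 and 8.47 in the iron-deficient rats, against 8.71, 8.98, 8.81, 8.67 and 9.00 in the pair-fed rats. Every iron-deficient rat lay below every pair-fed rat. The log2 fold change was -0.37 with an SE of 0.083 (0.775-fold, 95% interval -0.55 to -0.19), and the adjusted p from limma was 0.494. The other probe set of Mrpl49 gave -0.19 with an SE of 0.081, and there the groups overlapped.

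Mrpl47, the counterpart of a bacterial large subunit protein, and Mrpl44, which has a ribonuclease III-like fold, had groups that did not overlap either. Mrpl47 read 8.13, 8.27, 8.14, 8.27 and 8.26 in the iron-deficient rats, against 8.36, 8.33, 8.33, 8.54 and 8.49 in the pair-fed rats, a log2 fold change of -0.20 with an SE of 0.067. The gap between the highest iron-deficient and the lowest pair-fed rat was narrow. Mrpl44 read 8.35, 8.56, 8.52, 8.52 and 8.54 in the iron-deficient rats, against 8.64, 8.67, 8.60, 8.65 and 8.69 in the pair-fed rats, a log2 fold change of -0.16 with an SE of 0.059. Iron-deficient rat 1 was the low one, and the other 4 lay just under the pair-fed range. These 3 of 73 genes without overlap, all lower, stand beside 0.799% of all probe sets without overlap and lower, 0.493% without overlap and higher, and 1.67% lower among the genes with a level of at least 6.

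Of the small subunit, Mrps18b, 1 of several mammalian relatives of bacterial protein S18, had the lowest value. It read 10.03, 10.22, 10.09, 10.34 and 10.18 in the iron-deficient rats, against 10.32, 10.54, 10.37, 10.40 and 10.56 in the pair-fed rats, and only iron-deficient rat 4 reached into the pair-fed range. The log2 fold change was -0.27 with an SE of 0.076 (0.830-fold, adjusted p = 0.601 by limma). Mrps35, a small subunit protein without a bacterial counterpart, read 9.31, 9.40, 9.20, 9.28 and 9.29 in the iron-deficient rats, against 9.65, 9.35, 9.47, 9.43 and 9.62 in the pair-fed rats, a log2 fold change of -0.21 with an SE of 0.073. Iron-deficient rat 2 and pair-fed rat 2 crossed, and the other rats of the groups were separate.

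The groups overlapped for the other 4 genes at an unadjusted p under 0.05. Mrps6, the counterpart of bacterial S6, read 8.07, 8.06, 7.78, 8.16 and 7.94 in the iron-deficient rats, against 8.10, 8.32, 8.18, 8.12 and 8.21 in the pair-fed rats (log2 fold change -0.18, SE 0.079). Mrpl16, the counterpart of bacterial L16, read 10.07, 10.44, 10.29, 10.44 and 10.41 in the iron-deficient rats, against 10.49, 10.56, 10.44, 10.46 and 10.58 in the pair-fed rats (log2 fold change -0.17, SE 0.079). Iron-deficient rats 1 and 3 were the low ones for Mrpl16, whereas rat 3 was the low one for Mrps6. Mrps34, which keeps the small subunit and its ribosomal RNA stable in the mouse, read 10.35, 10.68, 10.42, 10.64 and 10.63 in the iron-deficient rats, against 10.70, 10.79, 10.71, 10.74 and 10.66 in the pair-fed rats (log2 fold change -0.17, SE 0.075). Mrps30, which sits in the large subunit despite its name, read 9.61, 9.78, 9.70, 9.86 and 9.62 in the iron-deficient rats, against 9.90, 9.96, 9.89, 9.81 and 9.82 in the pair-fed rats (log2 fold change -0.17, SE 0.066). Rats 1 and 3 were again lowest for Mrps34, and for Mrps30 rats 1 and 5.

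**Figure D2:**
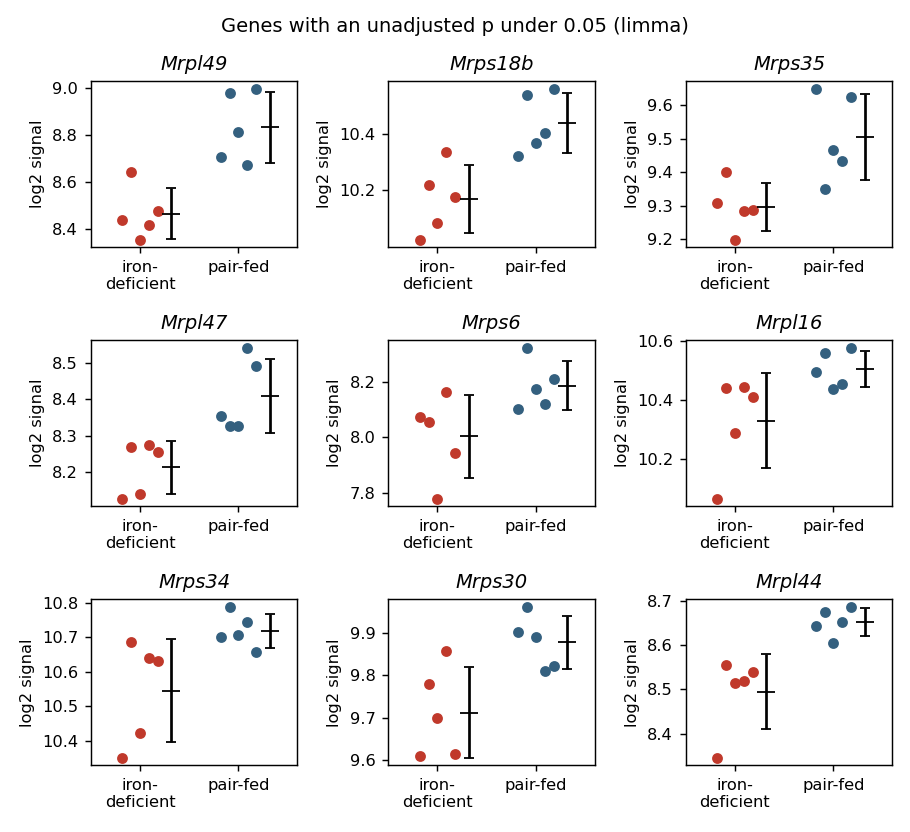
log2 signal of the 9 genes at an unadjusted p under 0.05 in each rat, iron-deficient at the left and pair-fed at the right of each panel, with the mean and SD of each group (n = 5) beside the points; the axes do not start at 0. The groups are separate for Mrpl49, Mrpl47 and Mrpl44 and overlap for the other 6 genes.

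The 5 genes with the highest values were close to no difference. Mrpl51 was at 9.76, 9.98, 9.81, 9.83 and 10.02 in the iron-deficient rats, against 9.81, 9.88, 9.74, 9.91 and 9.84 in the pair-fed rats, and its log2 fold change of 0.04 (95% interval -0.11 to 0.19) was the highest of all 73. Mrpl38 was at 0.03, Mrpl23 at 0.03, Mrps15 at 0.01 and Mrps9 at -0.02, with SEs between 0.073 and 0.088. All 5 encode structural proteins, the Mrpl genes of the large subunit and the Mrps genes of the small one.

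By subunit the values were alike. Of the 48 large subunit genes, which include Mrps18a and Mrps30, 45 were lower in the iron-deficient group, with a median log2 difference of -0.10. Of the 25 small subunit genes 24 were lower, with a median of -0.09. The 29 proteins without a bacterial counterpart had a median of -0.11, with 27 lower and 5 at an unadjusted p under 0.05, and the 44 proteins with one had a median of -0.09, with 42 lower and 4 at an unadjusted p under 0.05. The difference between these classes was not tested.

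In human mitochondrial ribosomes, Mrps16, Mrps18c and Mrps25 in the small subunit and Mrps18a in the large subunit help to hold iron-sulfur clusters. All 4 were lower on average in the iron-deficient group and none of these 4 had an unadjusted p under 0.05. The list of 4 may not hold every subunit that contacts a cluster. Mrps18c read 8.65, 9.21, 8.92, 9.12 and 8.94 in the iron-deficient rats, against 9.22, 9.13, 9.22, 9.07 and 9.12 in the pair-fed rats (log2 fold change -0.18, SE 0.095). Mrps25 read 9.35, 9.79, 9.53, 9.57 and 9.61 in the iron-deficient rats, against 9.75, 9.68, 9.66, 9.71 and 9.74 in the pair-fed rats (log2 fold change -0.14, SE 0.077). Iron-deficient rat 1 was the lowest of the 10 for all 4, and iron-deficient rat 2 lay within or above the pair-fed range for each. Mrps16 stood at -0.08 with an SE of 0.090 and Mrps18a at -0.06 with an SE of 0.059. Their median of -0.11 was near that of all 73 genes.

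The pair-fed rats held close together and the iron-deficient rats did not. The SD was larger in the iron-deficient group for 59 of the 73 genes, 80.8%, against 65.3% of all genes with a probe set. Its median over the 73 genes was 0.139 in the iron-deficient and 0.0735 in the pair-fed group (n = 5 each). This was not particular to these genes. The SD was also larger in the iron-deficient group for 38 of 42 cytosolic ribosomal protein genes (90.5%). The same held for 68 of 77 genes of the respiratory chain and ATP synthase (88.3%). Mrpl41, a large subunit protein, read 10.41, 11.17, 10.71, 10.85 and 10.99 in the iron-deficient rats, against 11.07, 11.06, 10.94, 10.90 and 10.97 in the pair-fed rats. Mrps28 read 9.15, 9.85, 9.48, 9.49 and 9.77 in the iron-deficient rats, against 9.60, 9.81, 9.60, 9.64 and 9.65 in the pair-fed rats. In both genes iron-deficient rat 1 lay far below and rat 2 above all pair-fed rats. Mrpl43, whose within-group SDs were 0.31 in the iron-deficient and 0.19 in the pair-fed group, departed from this order, with 10.69 in iron-deficient rat 1 and its lowest value of 10.16 in rat 3.

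Read rat by rat, the deficit lay mainly in 2 of the 5 iron-deficient rats. Each gene was set relative to its own mean over the 10 arrays, and the median over the 73 genes was then -0.20 in iron-deficient rat 1 and -0.11 in rat 3. It was 0.05, -0.01 and 0.04 in iron-deficient rats 2, 4 and 5, and 0.03, 0.10, -0.003, 0.05 and 0.07 in the pair-fed rats. The other 3 iron-deficient rats therefore lay inside the pair-fed range or, for rat 4, just below it. Iron-deficient rat 1 had the lowest of the 10 values for 51 of the 73 genes (69.9%), against 19.2% of all genes. Rat 3 had it for 15 (20.5%), against 12.0% of all genes and 14.9% of the genes with a level of at least 6.

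**Figure D3:**
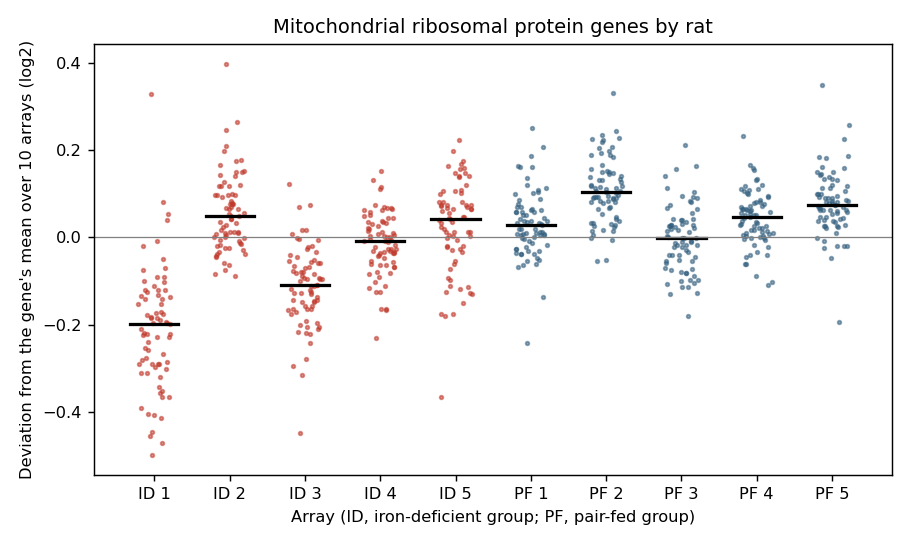
Deviation of each of the 73 genes from its own mean over the 10 arrays (log2), by array, with the iron-deficient (ID) rats at the left and the pair-fed (PF) rats at the right; points are genes and bars are medians. The medians of ID 1 and ID 3, at -0.20 and -0.11, lie below those of the other 8 rats.

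Rat 1 also stood apart by array controls. The 3′ minus 5′ log2 difference, which is larger where RNA is more degraded or its copying less complete, was 0.36 for GAPDH and 1.74 for beta-actin on the array of iron-deficient rat 1, against -0.05 to 0.11 and 1.08 to 1.33 on the other 9. Iron-deficient rat 3, 1 of those 9, was at -0.03 and 1.16, inside the pair-fed ranges of -0.05 to 0.09 and 1.08 to 1.33. Stellate and endothelial cell markers were high in rat 1 as well. The median deviation from the mean over the 10 arrays was 0.33 for the stellate and 0.18 for the endothelial markers there, against -0.11 to 0.17 and -0.01 to 0.17 in the other iron-deficient rats and -0.27 to 0.15 and -0.10 to 0.003 in the pair-fed rats. In iron-deficient rat 3 they were -0.02 and 0.07. Other lists differed in iron-deficient rat 1, with medians of -0.01 for Kupffer cell, -0.075 for T and NK cell and -0.28 for red cell markers. The neutrophil median there was 0.86, below the 1.11 of pair-fed rat 4. The part of RNA quality or of cell types in the low values of rat 1 was not tested. With that rat left out, 6 genes instead of 9 had an unadjusted p under 0.05, beside the smaller median given above. Rats 1 and 3 had the lowest medians of these genes, so a smaller difference without both follows from the choice of rats. With both left out, 48 of the 73 genes were lower, beside 52.1% of all genes with a probe set. The median was -0.03, and 2 genes, Mrpl49 and Mrps18b, had an unadjusted p under 0.05. The larger SD in the iron-deficient group then held for 30 genes, 41.1%, against 51.7% of all genes. Leaving out rats cannot create overlap, so Mrpl49, Mrpl47 and Mrpl44 had groups without overlap there by construction. The count stayed at 3 of the 73 genes, and 2.47% of all probe sets were lower without overlap in that smaller comparison. The share of all probe sets at an unadjusted p under 0.05 was not counted in either smaller comparison. With all 10 rats, 3.77% of all probe sets were lower at that p by limma, and 6.43% of the genes with a level of at least 6.

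Other large complexes were low in rat 1 too. The median over 42 cytosolic ribosomal protein genes, which translate the nuclear messages, was -0.17 in iron-deficient rat 1, and that over 77 nuclear-encoded subunits of the respiratory chain and ATP synthase was -0.19, whereas that of all genes was -0.01. In iron-deficient rat 3 the cytosolic ribosomal proteins were at -0.01 and the respiratory chain subunits at -0.06, above the mitochondrial ribosomal proteins at -0.11. Between the groups, 34 of the 42 cytosolic ribosomal protein genes were lower in the iron-deficient group with a median log2 difference of -0.03, and 65 of the 77 respiratory chain genes with a median of -0.06. Neither list had a gene at an unadjusted p under 0.05, and the differences between the lists were not tested.

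**Figure D4:**
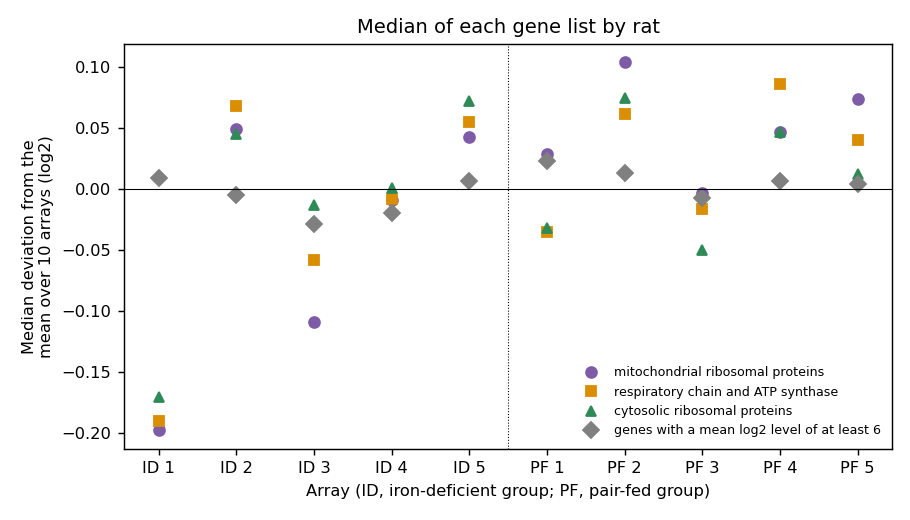
Median deviation from the mean over 10 arrays (log2) of 4 sets of genes in each rat, with the iron-deficient (ID) rats left of the dotted line and the pair-fed (PF) rats right of it. All 3 lists of ribosomal and respiratory genes are at -0.17 or below in ID 1, and the genes with a mean log2 level of at least 6 stay near 0 in every rat.

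The windows around the start sites of these genes were read for the sites of factors known to act on genes of mitochondrial proteins. NRF1 activates many such genes, ETS-family factors such as GABP likewise, and YY1 binds close to the start site of many ribosomal and mitochondrial genes. The promoters, of the rat assembly GRCr8 from RefSeq, span 250 bases before to 50 bases after the start site, and 59 of the 73 genes matched. The letters searched, on both strands, were GCATGCGC for NRF1, CCGGAAG for ETS and AAGATGG for YY1. The promoters of the 3 genes without overlap between the groups and of Mrps18b, which had the lowest fold change of the small subunit, are shown with matching letters in capitals.
Mrpl49: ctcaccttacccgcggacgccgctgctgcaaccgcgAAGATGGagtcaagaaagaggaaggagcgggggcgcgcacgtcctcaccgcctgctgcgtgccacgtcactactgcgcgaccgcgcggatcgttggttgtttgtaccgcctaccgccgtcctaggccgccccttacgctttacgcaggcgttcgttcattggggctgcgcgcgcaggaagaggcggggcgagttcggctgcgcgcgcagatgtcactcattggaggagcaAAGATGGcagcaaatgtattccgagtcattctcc
Mrpl47: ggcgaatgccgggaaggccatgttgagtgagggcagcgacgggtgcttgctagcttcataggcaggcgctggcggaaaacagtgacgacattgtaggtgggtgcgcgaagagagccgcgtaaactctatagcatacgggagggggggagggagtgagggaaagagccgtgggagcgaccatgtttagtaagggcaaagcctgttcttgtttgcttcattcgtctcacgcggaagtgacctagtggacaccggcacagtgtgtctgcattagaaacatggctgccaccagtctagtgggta
Mrpl44: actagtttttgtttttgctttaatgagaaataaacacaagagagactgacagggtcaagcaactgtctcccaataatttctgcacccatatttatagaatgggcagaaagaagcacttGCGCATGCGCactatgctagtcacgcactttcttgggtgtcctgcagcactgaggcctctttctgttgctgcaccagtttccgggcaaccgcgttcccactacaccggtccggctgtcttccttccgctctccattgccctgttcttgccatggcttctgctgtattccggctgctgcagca
Mrps18b: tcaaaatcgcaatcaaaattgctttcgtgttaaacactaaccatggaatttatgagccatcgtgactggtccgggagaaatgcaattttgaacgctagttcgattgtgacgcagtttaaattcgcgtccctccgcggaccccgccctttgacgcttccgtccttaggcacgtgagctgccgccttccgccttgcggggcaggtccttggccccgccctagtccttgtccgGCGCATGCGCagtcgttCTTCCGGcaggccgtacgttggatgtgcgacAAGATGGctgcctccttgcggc
They lie at chr1:212779278-212779577 on the minus strand for Mrpl49, at chr2:117447312-117447611 on the minus strand for Mrpl47, at chr9:88554800-88555099 on the plus strand for Mrpl44 and at chr20:2842756-2843055 on the plus strand for Mrps18b. Mrpl49 holds the YY1 letters at 2 places, 1 of them just after the start site. Mrpl44 holds the NRF1 letters on both strands in an overlapping, self-complementary run. Mrps18b holds that run, the ETS letters on the opposite strand and the YY1 letters, all near the start site, and Mrpl47 holds none of the 3. A match describes the letters of a window and is not evidence of binding.

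Across the 59 promoters, 5 held the NRF1 letters (8.47%), 20 the ETS letters (33.9%) and 15 the YY1 letters (25.4%). Among all 33469 promoters of the table the shares were 2.47%, 8.75% and 7.01%, and among the 8138 promoters of genes with a level of at least 6 they were 5.26%, 19.0% and 8.88%. At least 1 of the 3 was present in 32 of the 59 (54.2%). The share was 16.8% of all promoters and 29.3% of those of genes with a level of at least 6. The median log2 difference was -0.11 for these 32 genes and -0.08 for the other genes with a promoter, a gap smaller than the SE of any single gene among the 73 and not tested.

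Several of these genes share a promoter region with a neighbour transcribed the other way. A start site on the opposite strand lay within 500 bases for 15 of them, and Mrpl46 and Mrps11 were each other's neighbour, 234 bases apart. Of the 9 measured neighbours outside the family, 7 were lower on average in the iron-deficient group and 2 were higher, with a median log2 difference of -0.06, and none had an unadjusted p under 0.05. Ndufb5, a complex I subunit 244 bases from Mrpl47, stood at -0.14 with an SE of 0.106, Psma2, a proteasome subunit beside Mrpl32, at -0.15 with an SE of 0.085, and Tcp1, a chaperonin subunit beside Mrpl18, at -0.16 with an SE of 0.077. Helq, a DNA helicase 72 bases from Mrps18c, was at 0.11 with an SE of 0.068. The neighbour of Mrpl49 is Fau, which encodes a cytosolic ribosomal protein and was not analysed here.

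The signals of different probe sets are not comparable as amounts of RNA, so the levels serve only to place each gene on the array. The mean over 10 arrays lay between 7.88 and 11.60. At the upper end, Mrpl15 stood at 11.56 ± 0.14 in the iron-deficient and 11.64 ± 0.04 in the pair-fed group (SD, n = 5 each), and Mrpl17 at 11.04 ± 0.12 in the iron-deficient and 11.13 ± 0.08 in the pair-fed group. At the lower end, Mrps27 stood at 7.87 ± 0.14 in the iron-deficient and 7.90 ± 0.18 in the pair-fed group, and Mrpl38 at 7.89 ± 0.10 in the iron-deficient and 7.86 ± 0.11 in the pair-fed group. These differences were within the spread between rats.

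For 18 genes the array has more than 1 probe set. They differed in direction most for Mrpl52, a large subunit protein. Its brighter probe set read 9.08, 9.44, 9.49, 9.30 and 9.58 in the iron-deficient rats, against 9.53, 9.67, 9.57, 9.58 and 9.47 in the pair-fed rats (log2 fold change -0.19, SE 0.089). The dimmer one read 8.99, 9.04, 9.16, 8.93 and 8.81 in the iron-deficient rats, against 8.48, 8.64, 7.86, 9.07 and 8.91 in the pair-fed rats (0.39, SE 0.182). Pair-fed rat 3 was far below the rest on the dimmer probe set alone, and the direction for Mrpl52 is therefore unsettled.

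Mrpl50 showed the reverse case of 1 direction with unequal size. Its brighter probe set was at -0.11, and its dimmer one, at -0.40 with an SE of 0.106, read 8.06, 8.30, 8.62, 8.47 and 8.32 in the iron-deficient rats, against 8.80, 8.86, 8.82, 8.80 and 8.48 in the pair-fed rats. Only pair-fed rat 5 came down to the iron-deficient range on it, and its FDR by rank products was 0.0624. The probe sets of Mrpl51 ran from -0.15 to 0.04.

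The lists of genes for the machinery around the mitochondrial ribosome had median log2 differences from -0.10 to -0.04, beside -0.10 for the 73 genes. The counts in the lists below stand beside 48.6% of all probe sets lower on average and 3.77% lower at an unadjusted p under 0.05 by limma. Among the genes with a level of at least 6 these shares were 55.6% and 6.43%. Of the other ribosomal subunits, which carry symbols of their own, all 5 measured were lower on average in the iron-deficient group (median log2 difference -0.06). Chchd1, a small subunit protein, was at -0.16 with an SE of 0.072, Aurkaip1 at -0.17 with an SE of 0.083 and Dap3, a GTP-binding small subunit protein, at -0.06 with an SE of 0.061. Only Chchd1 had an unadjusted p under 0.05.

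Among 11 translation factors 8 were lower, with a median of -0.10 and 2 at an unadjusted p under 0.05, Mtrf1l and Taco1. Mtrf1l, the release factor that ends synthesis at stop codons, read 7.46, 7.51, 7.53, 7.73 and 7.63 in the iron-deficient rats, against 7.72, 7.93, 7.78, 7.82 and 7.81 in the pair-fed rats (log2 fold change -0.24, SE 0.068). Only iron-deficient rat 4 lay just above the lowest pair-fed rat. Taco1, an activator of cytochrome oxidase subunit translation, was at -0.15 with an SE of 0.070, and Tsfm, an elongation factor, at -0.16 with an SE of 0.080.

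Of 16 mitochondrial aminoacyl-tRNA synthetases and related enzymes, which charge tRNAs with their amino acids, 12 were lower, with a median of -0.08. Rars2, the arginine enzyme, read 8.21, 8.30, 8.10, 8.36 and 8.24 in the iron-deficient rats, against 8.50, 8.48, 8.37, 8.46 and 8.61 in the pair-fed rats (log2 fold change -0.24, SE 0.068), and the groups did not overlap. Qrsl1, a subunit of the enzyme that makes glutamine-charged tRNA, was at -0.19 with an SE of 0.073, and Cars2, the cysteine enzyme, at -0.13 with an SE of 0.069. Rars2 and Qrsl1 had an unadjusted p under 0.05. Groups without overlap and lower, as for Rars2, were found for 0.799% of all probe sets and 1.67% of the genes with a level of at least 6.

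Of 21 assembly factors 18 were lower, with a median of -0.10 and 3 at an unadjusted p under 0.05. Fastkd2, an RNA-binding protein of large subunit assembly, read 7.63, 7.72, 7.55, 7.85 and 7.81 in the iron-deficient rats, against 8.03, 8.02, 7.86, 7.79 and 8.11 in the pair-fed rats (log2 fold change -0.25, SE 0.082). Malsu1, which guards the large subunit from joining too early, was at -0.23 with an SE of 0.091, and Gtpbp10, a GTPase of large subunit assembly, at -0.19 with an SE of 0.075. Fastkd2 was lowest in iron-deficient rat 3, and its groups overlapped through pair-fed rat 4.

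Of 15 genes for the upkeep and transcription of mitochondrial DNA 13 were lower, with a median of -0.10 and 2 at an unadjusted p under 0.05. Mgme1, an exonuclease of mitochondrial DNA replication, was at -0.19 with an SE of 0.073, Ssbp1, the single-strand DNA binding protein, at -0.17 with an SE of 0.076, and Tefm, the transcription elongation factor, at -0.15 with an SE of 0.084. Tfam, the packaging and transcription factor of mitochondrial DNA, was at -0.12 with an SE of 0.083.

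Among 11 regulators of mitochondrial biogenesis and translation 6 were lower and 5 higher, with a median of -0.04. Ppargc1a, the coactivator that switches on mitochondrial biogenesis, read 7.40, 7.71, 8.21, 7.42 and 7.50 in the iron-deficient rats, against 7.45, 7.47, 7.11, 7.24 and 7.45 in the pair-fed rats (log2 fold change 0.31, SE 0.143, rank products FDR 0.340). Iron-deficient rat 3, in which the ribosomal protein messages were low, had the highest Ppargc1a signal of the 10, whereas rat 1, in which they were lowest, was within the pair-fed range. Myc, a growth regulator of many ribosomal genes, had the largest difference of the 11 and the largest spread. It read 8.49, 7.82, 7.02, 8.35 and 7.20 in the iron-deficient rats, against 7.20, 7.91, 9.44, 7.43 and 8.84 in the pair-fed rats (log2 fold change -0.39, SE 0.419, rank products FDR 0.0502), and the groups overlapped widely. Nrf1 was at 0.11 with an SE of 0.072 and Clpp, a mitochondrial protease, at -0.18 with an SE of 0.078, and of the 11 only Clpp had an unadjusted p under 0.05. No gene of these 6 lists passed the rank products.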

How the data were processed

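The authors deposited log2 signals from robust multiarray averaging (RMA) for 10 arrays of rat liver RNA, 1 per rat, from an Affymetrix rat genome array. RMA corrects background, quantile normalizes the arrays and summarises each probe set, so that differences are relative to the bulk of probe sets. Array medians ran from 6.19 to 6.22, and no further normalization was applied. All 10 columns were used. Groups follow title and treatment; the source field of the control samples names the iron-deficient diet instead. The replicates are separate rats.

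Of 31099 probe sets 57 controls were left out. The platform annotation pairs 20826 with 1 gene, 436 with several and 9780 with none. Rank products were computed over 25 array pairs with 100 permutations within arrays in Python 3.11.15 with numpy 2.4.6, and limma 3.58.1 in R 4.3.3 was fitted to all 31042 probe sets with diet as the only term and Benjamini-Hochberg adjustment. Both were run on simulated data with independent noise for each probe set. The planted changes were larger than any difference of the genes followed here, so that run does not cover differences of their size. The number of arrays limits the precision.

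The members, the gene lists and the tests were chosen with earlier results of these data known. Named with values were genes past the rank products, at a limma unadjusted p under 0.05 or without overlap between groups, the 5 highest and 5 lowest fold changes, the 3 highest and 3 lowest levels, the 3 largest SDs, the iron-sulfur cluster subunits, genes whose probe sets differ in direction, and up to 3 genes per further list by lowest p; other genes named, such as Tfam and Myc, the second probe set of Mrpl50 and promoter neighbours, were chosen after their values were seen. Alternatives left out each rat, used a replicate block, dropped dim probe sets, averaged a gene's probe sets and used rank sums.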

Additional observations from a re-analysis of the deposited data

Results flagged for a closer look

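Among 52 groups of 5 rats tested over the named genes, 2 held a rat farther from the other 4 than Dixon's 95% limit allows, and chance flags about 1 in 20 groups. Iron-deficient rat 1 had a log2 level of 8.35 for Mrpl44, the lowest of its group, with the other 4 between 8.51 and 8.56. Pair-fed rat 2 had a log2 level of 9.81 for Mrps28, the highest of its group, with the other 4 between 9.60 and 9.65. Without the low rat, the log2 fold change of Mrpl44 was -0.12. Leaving out the lowest rat of the lower group cannot create overlap, so its absence there is no check.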

How the results depend on the processing

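The 5 rats a group and differences near the size of their SE limit what can be said of single genes. None of the 73 genes passed the rank products under any alternative run. The median log2 difference stayed negative in all, between -0.13 and -0.06 with 1 rat left out and at -0.03 without iron-deficient rats 1 and 3, and 62 to 71 genes were lower with 1 rat left out. The 9 genes at an unadjusted p under 0.05 became 5 to 18 with 1 rat left out (18 without iron-deficient rat 2, 5 without pair-fed rat 2) and 2 without iron-deficient rats 1 and 3, a setting added after seeing the data. Mrpl49, Mrps18b, Mrps35, Mrpl47 and Mrpl44 had an unadjusted p under 0.05 in all 10 such fits, Mrps30 in 6, Mrps6 in 5, and Mrpl16 and Mrps34 in 4 each. The share of all probe sets at that p was not counted in the fits with rats left out. Averaged over all their probe sets, Mrpl52 was at 0.10 and Mrps15 at -0.11. The 272 probe sets called over the whole array became 166 to 272 with 1 rat left out, 164 without probe sets of a mean under 6, 34 with rank sums (4 higher and 30 lower) and 0 with limma's adjusted p; the cause was not tested. Deviations of same-numbered rats correlated between -0.04 and 0.09, and only 1 of the 5 iron-deficient rats correlated best with its own number. The replicate numbers therefore share only a number. With them as a replicate block, the median was -0.10, 69 genes were lower, 9 had an unadjusted p under 0.05, 0 passed the paired rank products and 231 probe sets passed in all; Mrps6 was the 1 named gene whose unadjusted p by limma then passed 0.05, at 0.0553.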
